A study of Homo sapiens with 14 samples.

Results

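The messages described here encode 10 human proteins that are anchored by their carboxy end in the mitochondrial outer membrane: the pore formers BAX and BAK1, the survival proteins MCL1 and BCL2L1, the fission receptors FIS1 and MFF, the GTPases RHOT1 and RHOT2, the scaffold SYNJ2BP and the antiviral adaptor MAVS. They were chosen by symbol, for where their proteins sit, and all 10 were found among the 19440 gene symbols of the files. Footprints, the RNA fragments that a translating ribosome shields from RNase, were counted in HEK293 cells (Flp-In T-REx 293, a human embryonic kidney line) from which microsomes were prepared, treated with nuclease and solubilized. Part of each extract was bound to Flag beads (IP) and part was kept as it was (input). Each bait was a subunit of EMC, a complex that inserts membrane segments into the endoplasmic reticulum (ER). IPs were made from cells with an EMC6 knockout that expressed 3Flag-EMC6 (n = 2) and from cells that expressed 3Flag-EMC7 (n = 2) or 3Flag-EMC10 (n = 3) with no knockout named, and each line had as many inputs as IPs. Doxycycline (0.5 to 1.0 ng/mL, 72 h) switched on the transgene in every culture, so the inputs carried the tagged bait as well. No IP from cells without a tagged bait was among the 14 libraries, so what the beads held through the complex and what they held otherwise cannot be told apart.

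A tail-anchored protein has a single membrane segment close to its carboxy end, which leaves the ribosome only when translation is over, so the protein reaches its membrane after synthesis. Those of the ER use the GET pathway or EMC, whereas in human cells MTCH2, itself in the mitochondrial outer membrane, inserts many of those of mitochondria. ATAD1 and ATP13A1 are known to remove tail-anchored proteins that entered the wrong membrane. BAX, BAK1, MCL1 and BCL2L1 belong to the BCL2 family, which decides whether the outer membrane is opened in apoptosis; MFF, FIS1 and MAVS are also found on peroxisomes.

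Counts on genes ranged from 515302 to 2248591 in the IPs and from 1692490 to 3395114 in the inputs, and the EMC6 line was the shallowest. Vimentin (VIM), KRT8, KRT18, CDH2 and NEFL, which HEK293 cells are known to express, were counted in every input, whereas PAX2 had 1 to 9 counts per input and NEFM had 1 count over all 7 inputs. Of 8 markers of leukocytes, hepatocytes, fibroblasts, endothelium and mature tubules, 6 had 0 counts in every input. Levels below are CPM, the usual counts relative to library size, here after TMM scaling, which sets the middle of the genes in all libraries near one level. Changes are log2 of IP over input with their SE, from 1 edgeR quasi-likelihood fit to all 14 libraries, and "rose" and "fell" mean a Benjamini-Hochberg adjusted p under 0.05 over the 9458 genes tested. Of the 10 messages 9 passed the filter on low counts, and BCL2L1 did not. Fewer copies of a message and fewer ribosomes on each copy cannot be told apart in footprint counts.

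The 9 tested messages did not move in one direction. Over the mean of the 3 lines BAX rose and MFF, RHOT1 and MAVS fell, while BAK1, MCL1, FIS1, RHOT2 and SYNJ2BP passed in neither direction. That is 1 risen and 3 fallen of 9, where 23.7% and 26.9% of all tested genes rose and fell, so neither share stands far from the background. The median log2 change of the 9 was -0.26 over the mean of the 3 lines, against -0.19 for all tested genes. By line, their median minus that of all genes was -0.34 with EMC6, 0.25 with EMC7 and -0.01 with EMC10. These medians rest on single libraries of their own line: without 1 of them they ran from -0.32 to -0.14 with EMC6 (the last without EMC6 input replicate 2), from -0.10 to 0.24 with EMC7 (the first without EMC7 IP replicate 1) and from -0.22 to 0.10 with EMC10 (without EMC10 IP replicate 2 and without EMC10 input replicate 3). As a background for the overlap of groups below, every IP lay below every input in 30.4%, 36.7% and 26.9% of tested genes in the EMC6, EMC7 and EMC10 lines, and above every input in 25.1%, 29.1% and 23.0%.

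Summed over the 10 messages, the EMC6 IPs held 178 and 141 CPM, against 189 and 185 CPM in the EMC6 inputs. The EMC7 IPs held 155 and 167 CPM, against 162 and 165 CPM in the EMC7 inputs. The EMC10 IPs held 146, 150.5 and 159 CPM, against 162, 160.7 and 172.5 CPM in the EMC10 inputs. The sums of IP and input overlapped in the EMC7 line and did not in the other lines, where all IPs were lower. MCL1 alone made up 31% to 40.7% of the summed counts of a library, so the sums do not weigh the 10 messages equally. Without TMM, relative to all counts on genes, the sum was 93.5 ± 3.1 CPM in EMC10 IPs, against 220.6 ± 3.4 CPM in EMC10 inputs (SD, n = 3 each). It was 159.4 ± 35.4 CPM in EMC6 IPs, against 301.5 ± 9.7 CPM in EMC6 inputs, and 102.2 ± 8.7 CPM in EMC7 IPs, against 209.2 ± 6.3 CPM in EMC7 inputs (SD, n = 2 each). The bait's own message took 24.6% to 26.1% of the counts in EMC10 IPs, 14.4% to 15.0% in EMC7 IPs and 0.431% to 0.449% in EMC6 IPs.

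**Figure D1:**
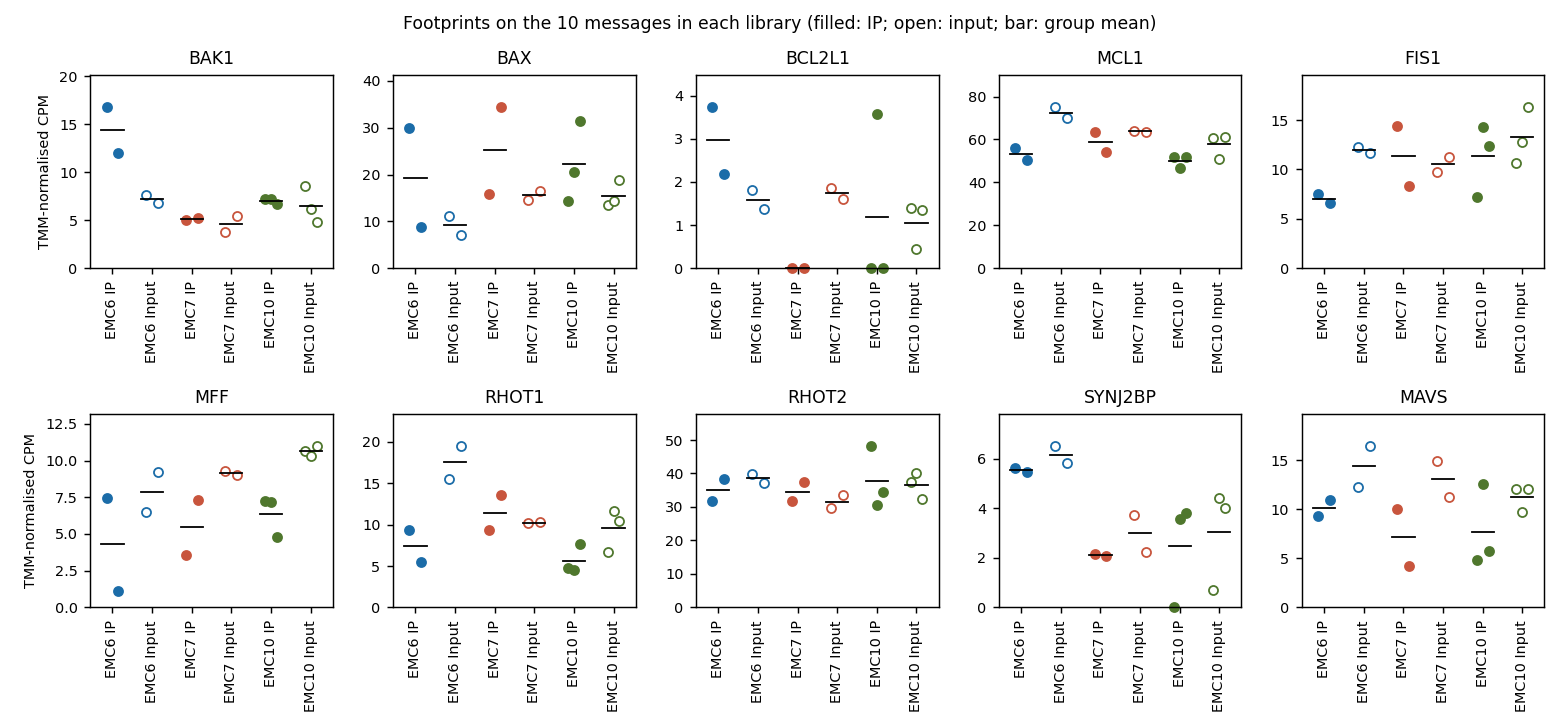
TMM-normalised CPM (y axis, linear from 0, its own scale in each panel) of the 10 messages in every library, with IP (filled) left of input (open) for each bait line and a bar at each group mean. IP and input points intermingle in most panels, and BAX IPs tend to the higher side and MFF IPs to the lower side. The EMC6 IPs of MCL1, FIS1, RHOT1, SYNJ2BP and MAVS lie below their inputs and those of BAK1 and BCL2L1 above. In that line 30.4% of all tested genes had every IP below every input and 25.1% had every IP above.

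BAX and BAK1 form the pores that release cytochrome c. BAX (chromosome 19, 48954875 to 48961798, GRCh38) had 29.9 and 8.76 CPM in EMC6 IPs, against 11.2 and 7.19 CPM in EMC6 inputs. With the EMC7 bait it had 15.8 and 34.5 CPM in IPs, against 14.7 and 16.4 CPM in inputs. With EMC10 the IPs had 14.5, 20.6 and 31.5 CPM, against 13.5, 14.3 and 18.8 CPM in inputs. Every IP was above the input of its own number, in 7 of 7 pairs, although IPs of 1 group differed by up to several times and each line's groups overlapped. The share of all tested genes that were above in every pair was not counted. BAX rose over the mean of the 3 lines by 0.69 ± 0.23 (adjusted p = 0.0131), and 80.1% of tested genes had a lower change. In the lines taken singly its changes were 0.88 ± 0.50, 0.63 ± 0.36 and 0.55 ± 0.31 with EMC6, EMC7 and EMC10 (adjusted p = 0.199, 0.206 and 0.172). The call was lost without EMC6 IP replicate 1 (0.40, adjusted p = 0.216) and without EMC7 IP replicate 2 (0.48, adjusted p = 0.0885), the highest IP of each line, and with scaling by library size alone the value was -0.26 (adjusted p = 0.275).

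For BAK1 (chromosome 6, 33572552 to 33580276) the values were 16.8 and 12.1 CPM in EMC6 IPs, against 7.60 and 6.84 CPM in EMC6 inputs. They were 5.03 and 5.22 CPM in EMC7 IPs, against 3.72 and 5.47 CPM in EMC7 inputs, and 7.23, 7.17 and 6.69 CPM in EMC10 IPs, against 8.58, 6.16 and 4.82 CPM in EMC10 inputs. Only in the EMC6 line did the groups not overlap, and there the change was 0.94 ± 0.44 (adjusted p = 0.111) on 9 and 11 counts in the IPs. Over the mean of the 3 lines it was 0.41 ± 0.26 (adjusted p = 0.188). Within pairs, which does not depend on the scaling, BAX exceeded BAK1 by 0.18 ± 0.51 on the log2 scale (SD, n = 7 pairs, exact two-sided sign-flip permutation p = 0.4375).

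MCL1 (chromosome 1, 150574558 to 150579610), a short-lived survival protein that holds BAK1 inactive, had the smallest error of the 9 tested messages. EMC6 IPs had 56.1 and 50.4 CPM, against 75.2 and 69.8 CPM in EMC6 inputs. EMC7 IPs had 63.3 and 54.3 CPM, against 63.8 and 63.7 CPM in EMC7 inputs. EMC10 IPs had 51.8, 46.6 and 51.6 CPM, against 60.7, 51.0 and 61.3 CPM in EMC10 inputs. All 7 IPs were below the input of their own number, by at most 0.46 on the log2 scale, and the groups overlapped in the EMC10 line alone. Over the mean of the 3 lines the change was -0.26 ± 0.11 (adjusted p = 0.0526), close to the median of all genes, and with IP and input of the same number paired in a replicate block it was -0.25 (adjusted p = 0.0232). It also passed with a stricter filter of 10 CPM in 2 libraries (-0.27, adjusted p = 0.0367) and without EMC10 input replicate 2 (-0.29, adjusted p = 0.0414).

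BCL2L1 (chromosome 20, 31664452 to 31723963), which encodes the survival protein BCL-XL, was near the limit of detection. It had 2 and 2 counts in EMC6 IPs, against 5 and 4 counts in EMC6 inputs, a ratio of IP to input of 1.75 after scaling (exact 95% counting interval 0.393 to 6.26). With EMC10 it had 0, 4 and 0 counts in IPs, against 6, 2 and 5 counts in inputs, a ratio of 1.29 (0.308 to 4.19). With EMC7 both IPs had 0 counts, against 8 and 5 counts in inputs, so that it was at least 1.37-fold lower there, taking 3 counts over the group as the floor. Its counting interval, 0 to 1.03, reaches past equality, and these intervals cover counting error only. Fitted without the filter, BCL2L1 did not pass the test in any line (adjusted p = 0.76, 0.0937 and 0.904 with EMC6, EMC7 and EMC10).

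The fission receptor MFF recruits the GTPase DRP1 to mitochondria. MFF (chromosome 2, 227325251 to 227357836) had 7.48 and 1.095 CPM in EMC6 IPs, against 6.51 and 9.24 CPM in EMC6 inputs. EMC7 IPs had 3.60 and 7.31 CPM, against 9.31 and 9.01 CPM in EMC7 inputs, and EMC10 IPs had 7.23, 7.17 and 4.78 CPM, against 10.7, 10.3 and 11.0 CPM in EMC10 inputs. All IPs of the EMC7 and EMC10 lines were below their inputs, and in the EMC6 line 1 of 2 IPs was below the input of its number. MFF fell over the mean of the 3 lines by 0.91 on the log2 scale (SE 0.29, adjusted p = 0.00787), the largest fall among the 9, and 5.30% of tested genes were lower. The lowest library, EMC6 IP replicate 2, held 1 count, and without it the value was -0.56 (adjusted p = 0.141). Without EMC6 IP replicate 1, the other IP of that line, it was -1.43 (adjusted p = 0.00145), whereas the mean of the EMC7 and EMC10 lines alone, looked at after the data were seen, was -0.78 (adjusted p = 0.028).

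FIS1 (chromosome 7, 101239472 to 101245081) had 7.48 and 6.57 CPM in EMC6 IPs, against 12.3 and 11.6 CPM in EMC6 inputs. EMC7 IPs had 14.4 and 8.36 CPM, against 9.77 and 11.3 CPM in EMC7 inputs, and EMC10 IPs had 7.23, 14.3 and 12.4 CPM, against 10.7, 12.8 and 16.3 CPM in EMC10 inputs. Its IPs lay below the inputs in the EMC6 line and overlapped them in the others. The mean change was -0.26 ± 0.23 (adjusted p = 0.349). Within pairs MFF was 0.57 below FIS1 (mean -0.57 ± 1.007, SD, n = 7 pairs, exact sign-flip permutation p = 0.25), with MFF higher in 2 of 7 pairs.

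RHOT1 and RHOT2, also called Miro, tie mitochondria to kinesin and dynein through adaptors. RHOT1 (chromosome 17, 32142502 to 32225727) had 9.35 and 5.48 CPM in EMC6 IPs, against 15.6 and 19.5 CPM in EMC6 inputs. EMC7 IPs had 9.35 and 13.6 CPM, against 10.2 and 10.3 CPM in EMC7 inputs, and EMC10 IPs had 4.82, 4.48 and 7.64 CPM, against 6.72, 11.7 and 10.5 CPM in EMC10 inputs. The groups stood apart in the EMC6 line and overlapped in the other lines. With the EMC6 bait RHOT1 fell by 1.33 (SE 0.46, adjusted p = 0.0292), the only member called in a single line, where 17.6% of all genes rose and 9.27% fell. Over the mean of the 3 lines it fell by 0.66 (SE 0.24, adjusted p = 0.0204). Both calls were lost with DESeq2's test (adjusted p = 0.116 and 0.102) and without EMC6 IP replicate 2 (adjusted p = 0.421 and 0.132), the first also without EMC6 input replicate 2 (adjusted p = 0.129), the second also without EMC7 IP replicate 1 (adjusted p = 0.0727) and without the EMC6 line (-0.32, adjusted p = 0.349).

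RHOT2 (chromosome 16, 668083 to 674174) had 31.8 and 38.3 CPM in EMC6 IPs, against 39.8 and 37.3 CPM in EMC6 inputs. EMC7 IPs had 31.6 and 37.6 CPM, against 29.8 and 33.5 CPM in EMC7 inputs, and EMC10 IPs had 48.2, 30.5 and 34.4 CPM, against 37.3, 40.0 and 32.4 CPM in EMC10 inputs. IP and input overlapped in all 3 lines, and the mean change was 0.01 ± 0.13 (adjusted p = 0.964). RHOT1 was below its paralogue in 6 of 7 pairs, with a mean difference of -0.59 ± 0.63 on the log2 scale (SD, n = 7 pairs). The exact two-sided sign-flip permutation test gave p = 0.046875 and 0.1875 after adjustment over the 4 differences tested between members, where 7 pairs can give no less than 0.015625.

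MAVS (chromosome 20, 3846834 to 3876118) passes the signal of cytosolic sensors of viral RNA to interferon genes. EMC6 IPs had 9.35 and 10.9 CPM, against 12.3 and 16.4 CPM in EMC6 inputs. EMC7 IPs had 10.1 and 4.18 CPM, against 14.9 and 11.3 CPM in EMC7 inputs, and EMC10 IPs had 4.82, 12.5 and 5.73 CPM, against 12.1, 9.67 and 12.1 CPM in EMC10 inputs. IPs were below inputs in the EMC6 and EMC7 lines, and 1 EMC10 IP was above all EMC10 inputs. MAVS fell over the mean of the 3 lines by 0.59 (SE 0.23, adjusted p = 0.0330), with values of -0.48 ± 0.44, -0.80 ± 0.40 and -0.49 ± 0.35 for EMC6, EMC7 and EMC10. The call was lost without any of 7 single libraries (EMC6 input 2, both EMC6 IPs, EMC7 input 1, EMC7 IP 2 and EMC10 IPs 1 and 3), with values of -0.64 to -0.46 (adjusted p = 0.063 to 0.116), and with DESeq2's test (adjusted p = 0.126).

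SYNJ2BP (chromosome 14, 70366499 to 70417090), a PDZ protein that also tethers mitochondria to ribosome-bearing ER, had 5.61 and 5.48 CPM in EMC6 IPs, against 6.51 and 5.82 CPM in EMC6 inputs. EMC7 IPs had 2.16 and 2.09 CPM, against 3.72 and 2.25 CPM in EMC7 inputs, and EMC10 IPs had 0, 3.58 and 3.82 CPM, against 0.696, 4.397 and 4.02 CPM in EMC10 inputs. These rest on at most 5 counts per IP, and the mean change was -0.29 ± 0.43 (adjusted p = 0.607). SYNJ2BP overlaps the read-through gene SYNJ2BP-COX16, and their reads were not kept apart: over all libraries SYNJ2BP had 117 counts and COX16 had 791, while the read-through gene had 855, so its values are uncertain.

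**Figure D2:**
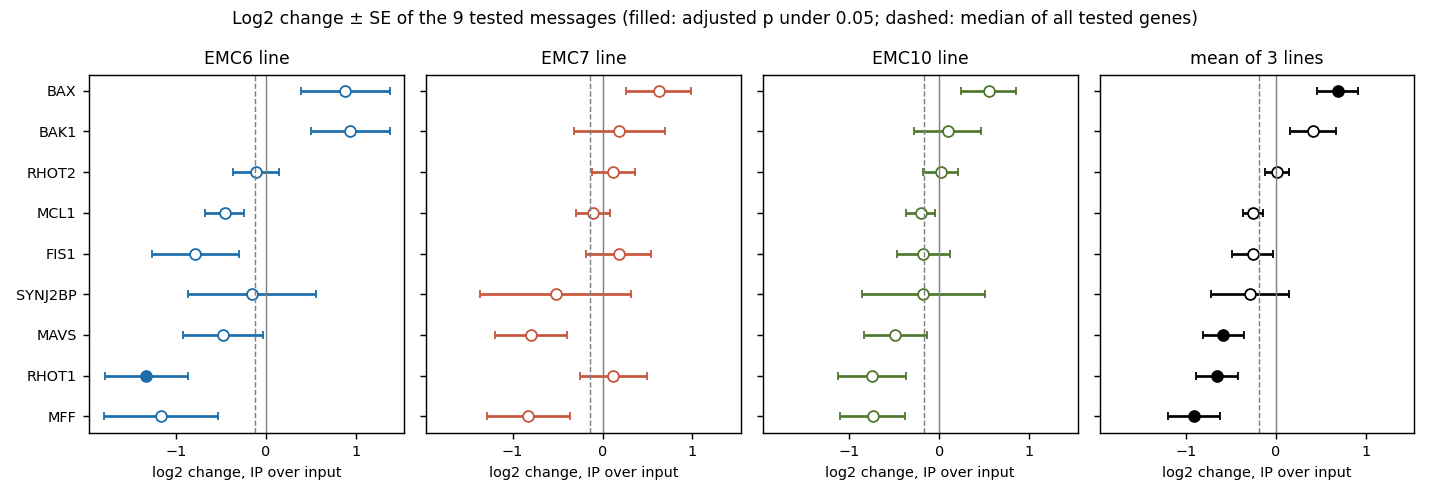
Log2 change of IP over input ± SE (x axis) of the 9 tested messages (y axis) with each bait and over the mean of the 3 lines; filled points have an adjusted p under 0.05 and the dashed line is the median of all tested genes. Filled points are RHOT1 with EMC6, and BAX, MFF, RHOT1 and MAVS over the mean, and in the EMC6 line BAX and BAK1 lie to the right of the dashed line with their error bars while MCL1, FIS1, RHOT1 and MFF lie to its left.

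With the EMC7 bait 0 members rose and 0 fell in edgeR's test, where 20.4% and 9.68% of all genes did, and 0 had an unadjusted p under 0.05. With EMC10 the counts were again 0 and 0, against 19.9% and 13.9% of all genes, and MFF alone had an unadjusted p under 0.05. DESeq2 called 0 members in both lines. The differences between baits were tested directly. No member passed for EMC6 minus EMC7, EMC6 minus EMC10 or EMC7 minus EMC10, where 0.518%, 0.074% and 0.159% of all genes did, and DESeq2 called 0. The largest difference was that of RHOT1, -1.45 ± 0.61 for EMC6 minus EMC7 (adjusted p = 0.402), the only one with an unadjusted p under 0.05. The SEs of these differences ran from 0.26 to 1.11, so a moderate difference between baits was not detectable for the low messages.

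In the inputs alone, RHOT1 was higher in the EMC6 line, at 17.5 ± 2.8 CPM, against 10.3 ± 0.04 CPM in the EMC7 line and 9.61 ± 2.57 CPM in the EMC10 line (SD, n = 2, 2 and 3). The difference was 0.82 ± 0.23 on the log2 scale against the mean of the other lines (adjusted p = 0.00542). This comparison called 37.1% of all genes, with 15.3% higher and 21.8% lower in EMC6 inputs. The RHOT1 call was lost without EMC6 input replicate 2 (0.59, adjusted p = 0.147) and with DESeq2's test (0.75, adjusted p = 0.0565). The same 2 EMC6 inputs enter the fall of RHOT1 with the EMC6 bait, so these calls are not independent. In the IPs RHOT1 averaged 7.41 CPM with EMC6, between 5.65 CPM with EMC10 and 11.5 CPM with EMC7. Among the inputs, BAX stood lower in the EMC6 line, at 9.20 ± 2.85 CPM, against 15.5 ± 1.2 CPM in the EMC7 line and 15.5 ± 2.9 CPM in the EMC10 line, a difference of -0.75 ± 0.31 that did not pass (adjusted p = 0.0573). It passed with DESeq2 size factors in edgeR (-0.83, adjusted p = 0.0369) and with no filter (-0.77, adjusted p = 0.0145). With library size alone the BAX difference was weaker (-0.44, adjusted p = 0.241). It was -1.11 without EMC6 input replicate 1 and -0.51 without EMC6 input replicate 2, so it depends on single EMC6 inputs. Without any 1 of the EMC6 and EMC7 IPs, which are not part of this contrast, it was -0.80 to -0.76. SYNJ2BP had the largest difference, at 6.16 ± 0.49 CPM in the EMC6 line, against 2.99 ± 1.04 CPM in the EMC7 line and 3.04 ± 2.04 CPM in the EMC10 line, and it did not pass either (1.00 ± 0.43, adjusted p = 0.0665). With no filter (adjusted p = 0.0459), library size alone (adjusted p = 0.0121) or without EMC10 input replicate 2 (adjusted p = 0.0377) it did. The SYNJ2BP difference was further from passing with DESeq2's test (0.95, adjusted p = 0.22) and without EMC10 input replicate 1 (0.76, adjusted p = 0.13). When the proteasome and chaperonin list set the scale it was 0.95 (adjusted p = 0.183). The EMC6 inputs also differed in makeup: in the lists described below, all 18 ER luminal messages and 18 of 20 multi-pass messages were called lower there. Counts on no feature were 11% and 12.1% in EMC6 inputs, against 4.23% to 4.71% in the other inputs. Line, knockout and the depth of the EMC6 libraries cannot be told apart here.

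Other outer membrane messages were set beside the 10, by how their proteins are anchored. Over the mean of the 3 lines 23.7% of all tested genes rose and 26.9% fell. Of 11 tested messages of further tail-anchored proteins of that membrane 0 rose and 1 fell over the mean of the 3 lines, by edgeR, by DESeq2 and at an unadjusted p under 0.05 alike, and their median lay 0.10 above that of all genes. The fallen one was CYB5B, the outer membrane cytochrome b5 (-0.62, adjusted p = 0.0112). Their highest was TOMM5, a small subunit of the import pore (0.27 ± 0.21, adjusted p = 0.304), and their lowest was the fission factor GDAP1 (-0.67 ± 0.41, adjusted p = 0.172). Of 5 beta-barrel messages 1 rose and 2 fell, with the import pore TOMM40 at 0.37 ± 0.11 and the channels VDAC3 at -0.36 ± 0.11 and VDAC1 at -0.33 (adjusted p = 0.00326, 0.0063 and 0.00988), where DESeq2 called 1 risen and 0 fallen. These medians, like that of the 9 tested messages, were within 0.10 of the median of all genes.

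Messages of proteins with several spans, or with an anchor at the amino end, had higher medians, a description without a test of the difference, and 23.7% of all tested genes rose. Of 10 tested multi-span messages 4 rose and 0 fell, by edgeR and by DESeq2, with 5 and 0 at an unadjusted p under 0.05, with a median 0.46 above that of all genes, and the changes of FUNDC1, FUNDC2, MARCHF5 and MFN1 were below 0. CPT1A, the enzyme that commits fatty acids to mitochondrial oxidation, rose by 1.93 ± 0.14 (adjusted p = 8.37e-15), at 78.8 ± 11.0 CPM in EMC6 IPs against 17.3 ± 7.5 CPM in EMC6 inputs (SD, n = 2 each). MTCH1 rose by 1.46 ± 0.12, the ubiquitin ligase MUL1 by 0.84 ± 0.12 and the insertase MTCH2 by 0.40 ± 0.14 (adjusted p = 0.0192), whereas the fusion GTPases MFN1 and MFN2 did not pass (-0.04 ± 0.16 and 0.14 ± 0.10), nor did the mitophagy receptor FUNDC1, the lowest of the list (-0.37 ± 0.26, adjusted p = 0.25). Of 10 signal-anchored messages 5 rose and 1 fell, with a median 0.65 above that of all genes. Those that rose were the reductases MTARC1 (1.46 ± 0.10) and MTARC2 (0.93), the ER tether RMDN3 (1.08), the kinase anchor AKAP1 (0.49) and the deubiquitinase USP30 (0.44), and the import receptor TOMM70 fell (-0.60 ± 0.11, adjusted p = 3.57e-05). With library size alone 2 multi-span messages rose and 7 fell, and 1 signal-anchored message rose and 6 fell.

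Tail-anchored proteins of the ER and the secretory pathway gave 0 risen and 11 fallen of 33 tested messages (0 and 6 by DESeq2, 0 and 13 at an unadjusted p under 0.05), where 23.7% of all tested genes rose and 26.9% fell. Their median was -0.28 from that of all genes. The lowest was the SNARE VTI1A (-3.41 ± 0.92, adjusted p = 0.00235), with no count in the EMC6 IPs, so this fitted value is not a bound. The SNARE BET1 was highest (0.67 ± 0.38, adjusted p = 0.139). Of 30 messages for mitochondrial matrix proteins 2 rose and 15 fell (2 and 9 by DESeq2), with SOD2 at -0.77 ± 0.18 and the elongation factor TUFM at 0.37 ± 0.08. Their summed level was lower in IPs in every line, at 3972 to 4722 CPM in EMC6 IPs against 4901 to 5735 CPM in EMC6 inputs. The proteasome and chaperonin, as cytosolic messages, had 0 risen and 20 fallen of 30 (1 and 11 by DESeq2, 0 and 21 unadjusted), from PSMC6 at -0.69 ± 0.15 to PSMC1 at 0.17 ± 0.10. The number fallen depended on the scaling. With library size alone 32 ER tail-anchored, 30 matrix and 30 cytosolic messages fell, where 77.0% of all tested genes did. When the proteasome and chaperonin list set the scale, 3, 4 and 3 fell, where 7.15% of all tested genes did. ER luminal messages had 8 risen and 0 fallen of 18 (10 and 0 by DESeq2, 8 and 1 unadjusted), from PDIA3 at -0.18 ± 0.09 to GANAB at 1.25 ± 0.08. A list of 20 multi-pass proteins of the secretory pathway was chosen, like the other lists, with earlier results of these data known. All 20 of its messages rose, which describes this list and is not an independent scale for the beads. Their median was 3.15 above that of all genes, and they ran from SLC39A10 at 0.91 ± 0.11 to SLC12A2 at 4.15 ± 0.10. The bait messages EMC6, EMC7 and EMC10 rose as well (3.26, 3.96 and 2.80), but these averages mix each bait's own line with lines where it was untagged. In its own line the change was 7.535 for EMC6, 5.71 for EMC7 and 7.31 for EMC10. Where untagged, the bait messages ranged from 0.48 (EMC10) to 3.26 (EMC7), both in the EMC6 line.

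**Figure D3:**
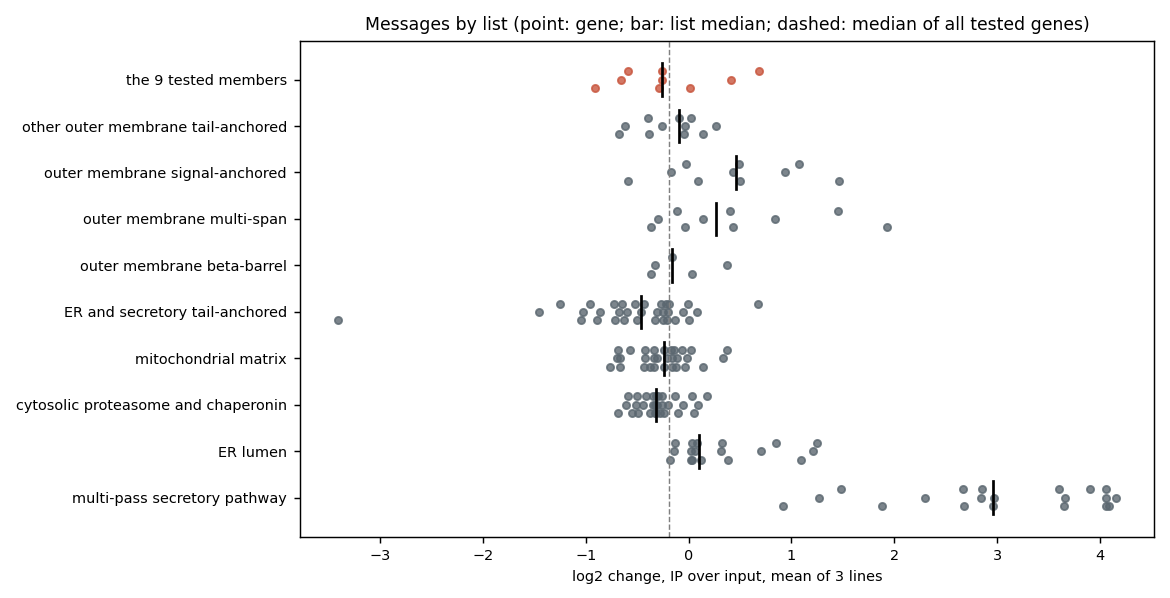
Log2 change of IP over input over the mean of the 3 lines (x axis) for each tested gene of 10 lists (rows); a bar marks the list median and the dashed line the median of all tested genes. The 9 tested messages lie between -0.91 and 0.69 on both sides of the dashed line and the ER tail-anchored list reaches down to -3.41, whereas the 20 multi-pass messages of the secretory pathway start at 0.91.

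The lists of genes that act with these 10 had medians of -0.19 (BCL2 regulators), -0.12 (MAVS partners), -0.09 (fission and transport) and 0.23 (targeting and removal of tail-anchored proteins) relative to that of all genes. As a background for the counts below, 23.7% of all tested genes rose and 26.9% fell over the mean of the 3 lines. Of 9 tested BCL2 regulators and apoptosome components 0 rose and 4 fell (0 and 2 by DESeq2, 0 and 5 unadjusted). Among the fallen were the initiator caspase CASP9 (-1.90 ± 0.57), the caspase inhibitor XIAP (-0.50 ± 0.21) and the caspase activator APAF1 (-0.48 ± 0.20). CASP9 was near the limit of detection, with means of 0.55, 0.72 and 1.019 CPM in EMC6, EMC7 and EMC10 IPs. The inputs of these lines had means of 4.42, 2.17 and 3.60 CPM, so the size of its fall is uncertain. XIAP and APAF1 passed narrowly (adjusted p = 0.0447 and 0.0433). CYCS, which encodes cytochrome c, did not pass (-0.25 ± 0.12, adjusted p = 0.0741), nor did the BH3 proteins BID (-0.38 ± 0.22) and PMAIP1 (0.13 ± 0.21) or the protease HTRA2, the highest (0.17 ± 0.23). Among 10 partners in fission and transport 0 rose and 3 fell (0 and 1 by DESeq2, 1 and 3 unadjusted), the kinesins KIF5B (-0.62 ± 0.10) and KIF5A (-0.51 ± 0.20) and DNM1L, which encodes DRP1 (-0.36 ± 0.11, adjusted p = 0.0083), and the highest was the DRP1 adaptor MIEF2 (0.50 ± 0.24, adjusted p = 0.0817). Of 9 MAVS partners 0 rose and 2 fell (0 and 1 by DESeq2, 0 and 2 unadjusted), ZC3HAV1 (-0.60 ± 0.14) and the ubiquitin ligase TRIM25 (-0.35 ± 0.15, adjusted p = 0.0406). The viral RNA sensor IFIH1 was lowest in that list (-0.69 ± 0.53, adjusted p = 0.283) and the transcription factor IRF3 highest (-0.09 ± 0.20, adjusted p = 0.742). The factors that target or remove tail-anchored proteins split into 4 risen and 3 fallen of 11, by edgeR and by DESeq2. ATP13A1, a multi-pass pump of the ER, rose by 3.23 ± 0.09 (adjusted p = 2.17e-26), with 1460 ± 40 CPM in EMC6 IPs against 127.7 ± 2.5 CPM in EMC6 inputs (SD, n = 2 each), and ATAD1 (0.42) and the GET receptor subunits CAMLG (0.44) and GET1 (0.64) rose as well. The 3 that fell were the ubiquilins, cytosolic chaperones of membrane segments: UBQLN2 (-1.08 ± 0.13, adjusted p = 4.82e-09), UBQLN4 (-1.04) and UBQLN1 (-1.01).

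Where the members stand against 0 depended on the scaling, which moves all genes of a library alike and so leaves their order as it is. Averaged over the lines, all tested genes had a median of -1.13 with library size alone, -0.19 with TMM, -0.09 under DESeq2 size factors and 0.10 when the proteasome and chaperonin list set the scale. The median of the 9 messages moved with it, to -1.21, -0.26, -0.17 and 0.024. With library size alone 0 members rose and 8 fell, where 12.0% and 77.0% of all tested genes did. With the cytosolic list 2 rose, BAX (0.98) and BAK1 (0.69, adjusted p = 0.0291), and 0 fell, where 27.0% and 7.15% of all tested genes did.

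**Figure D4:**
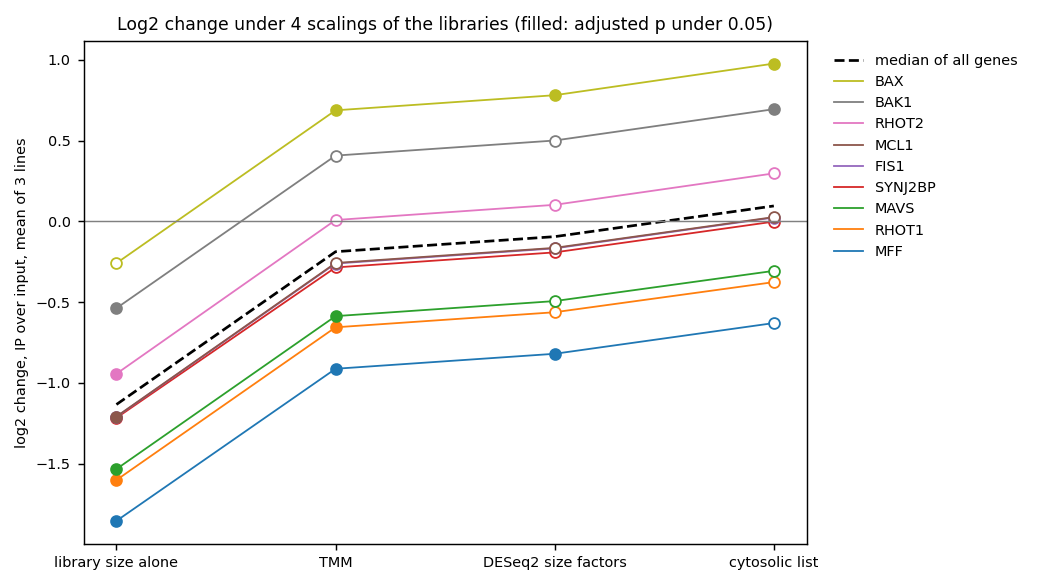
Log2 change of IP over input over the mean of the 3 lines (y axis) of the 9 tested messages under 4 ways of scaling the libraries (x axis), with the median of all genes dashed; filled points have an adjusted p under 0.05 and the FIS1 line lies under that of MCL1. All lines move in parallel, as a common scaling makes them, from 8 messages called lower with library size alone to 2 called higher with the cytosolic list.

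Across libraries the messages varied in different ways. Each tested message was compared, over the 14 libraries on the log2(CPM + 1) scale, with the mean of the other 8; Pearson's r ranged from -0.49 for RHOT2 to 0.52 for RHOT1, with BAX and BAK1 at -0.29 and -0.26. These libraries share the division into IP and input and differ in depth, so the values are only descriptive. The genes outside the list most like the mean of the 9 were EVI5 (r = 0.933), C14orf119 (r = 0.927), NKAP (r = 0.920), CEP112 (r = 0.920) and SEPHS1 (r = 0.912), all with a negative mean change, from -1.09 for CEP112 to -0.38 for SEPHS1.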

How the data were processed

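Each library came as raw counts per gene, deposited by the authors without normalization. The submitters' processing notes name Cutadapt 4.1, Bowtie2 2.2.6, TopHat2 2.1.0 and hg38. Amplified fragments may be counted more than once and antisense genes may share reads, since duplicate handling, strand and annotation were not given in the sources used here. Rows that name no gene (2.76% to 12.5% of counts) were left out. RefSeq positions (GRCh38) matched 18968 of 19440 symbols.

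The 14 libraries were fitted together in edgeR 4.0.16 under R 4.3.3, with limma 3.58.1: a mean per line and fraction, TMM, filterByExpr (9458 genes), a robust quasi-likelihood test and Benjamini-Hochberg adjustment at 0.05 over all tested genes. Pair ratios of members added 0.5 to each count. DESeq2 1.42.0, other scalings and filters, a replicate block, fits of a line alone and fits without each library were alternatives. The steps were tested on simulated counts. The labels' batch field gives an IP and an input of each line the same number, and per the labels' protocols the cleared supernatant served as input and, after bead binding, as the source of the IP, so same-numbered libraries were treated as pairs. Deviations from the group means gave little sign of it outside the EMC6 line (r = 0.28 for EMC6, 0.076 for EMC7 and 0.044 to 0.097 for EMC10). Replicates correlated at r = 0.915 to 0.988, and all differed by more than sampling noise (chi-square over its degrees of freedom 1.92 to 8.45). No label says that replicates came from separate cultures, so p-values may measure technical spread alone.

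The members and lists were chosen with earlier results of these data known. Named were all 10 members, the baits, the highest and lowest tested gene of each other list, partner genes that passed the test (1 is not reported here) and the 5 genes most like the members' mean. In addition CYB5B, VDAC1, MTARC2, RMDN3, AKAP1, USP30, FUNDC2, MARCHF5, MFN1, MFN2, MTCH1, MTCH2, MUL1, ATAD1, CAMLG, GET1, UBQLN1, UBQLN4, CYCS, BID and PMAIP1 were named after their values were seen. Protein sequences were not used here.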

Additional observations from a re-analysis of the deposited data

Results flagged for a closer look

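BCL2L1 was the only member whose pairs went opposite ways in 2 lines: both EMC6 pairs were higher in IP and both EMC7 pairs lower, with a gap of 3.14 on the log2 scale after 0.5 was added to each count. The gap rests on 2 and 2 IP counts in the EMC6 line and 0 and 0 in the EMC7 line, its size depends on the added 0.5 (with 2 added, the mean of BCL2L1 minus MCL1 over all pairs turned to 0.90, against -0.08 with 0.5), and the difference was not tested.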

How the results depend on the processing

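Library size alone gave 6, 6 and 7 fallen members with EMC6, EMC7 and EMC10, 0 risen and 8 fallen over the mean, and 4 members higher in EMC6 inputs, where 45.7%, 63.8%, 75.8% and 77.0% of all genes fell and 36.3% were higher in EMC6 inputs. It turned FIS1, RHOT1 and RHOT2 with EMC7 to -0.84, -0.90 and -0.90, BAK1 and RHOT2 with EMC10 to -1.02 and -1.11, and BAK1, BAX and RHOT2 over the mean to -0.54, -0.26 and -0.94. The cytosolic list gave 1 risen and 0 fallen with EMC6, and 2 risen and 0 fallen over the mean. DESeq2 size factors, and DESeq2's own test, gave 0 fallen with EMC6 and 1 over the mean; for EMC6 inputs the first gave 1 lower and the second 0 higher. No filter gave 2 higher and 1 lower in EMC6 inputs. The libraries of 1 line alone gave 0 fallen with EMC6 and 1 risen with EMC10. Leaving out each library gave 0 to 1 risen and 0 to 2 fallen with EMC6, 0 to 1 risen with EMC7, 0 to 1 risen and 0 to 4 fallen over the mean, and 0 to 2 higher and 0 to 1 lower in EMC6 inputs. The members' median relative to all genes ran from -0.34 to -0.14 (without EMC6 input replicate 2) with EMC6, from -0.10 (without EMC7 IP replicate 1) to 0.26 with EMC7, and from -0.22 to 0.10 (without EMC10 input replicate 3) with EMC10 when single libraries were left out, and was 0.026 over the mean without the EMC6 line, an alternative chosen after seeing the data. The cause of these moves was not tested. With same-numbered libraries as a replicate block, 4 members fell over the mean, MCL1 in addition (-0.25, adjusted p = 0.0232), and no other member's call changed. The stricter filter gave 4 fallen over the mean as well. The differences between baits called 0 members under every alternative run, and no paralogue difference passed after adjustment under any. Depth limits BCL2L1 and SYNJ2BP most, with 0 to 5 counts in each IP.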
